A study of Mus musculus with 2 samples.

Results

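Sfmbt2, an imprinted mouse gene of the Polycomb-related MBT family, carries a large group of microRNA (miRNA) hairpins in an intron. The group was taken here as every miRNA gene in the deposited tables whose hairpin lies inside Sfmbt2 (chromosome 2, 10370510 to 10595253, plus strand, mouse build mm10) on the strand of Sfmbt2. This gave 107 members of 1973 genes in the tables. The series holds 1 group of 2 small RNA libraries from heart tissue of B6NCrl mouse embryos at embryonic day 14.5. The labels number them as biological replicate 1, taken on 15 July 2014, and replicate 2, taken on 17 July. No second group, treatment or engineered allele is part of the series. For both libraries the labels speak of a lone heart from a pup but also of pooled sexes, and nothing states that the hearts came from separate litters, so the spread between the libraries may be partly technical.

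A miRNA is cut from a hairpin in a longer transcript, and its seed, the bases near its 5′ end, pairs with target messages. A hairpin in an intron is usually released from the transcript of its host gene. Sfmbt2 is known for expression from the paternal allele in the placenta and other tissues outside the embryo proper. Its intron holds tandem copies of the rodent families miR-466, miR-467, miR-297 and miR-669, which grew by duplication and are rich in alternating bases. In the heart, miR-669a has been described as acting against the muscle regulator MyoD in cardiac progenitors. The tables count reads per hairpin and do not separate the arms of a hairpin.

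The RefSeq table of miRNA sequences (GRCm38.p6) had an entry for 0 of the 107 members, among them Mir467e, Mir467d, Mir467c, Mir669o, Mir669l and Mir669c. It had a mature sequence for 8 of the 10 genes of the same families that lie outside Sfmbt2. Of the 8, 6 are shown as examples of the alternating bases of the families. The sequences of miR-466q and miR-467f, which also have such bases, are not printed. They are written 5′ to 3′ with the seed, bases 2 to 8, in capitals.
miR-466i-3p: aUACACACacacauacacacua
miR-466j: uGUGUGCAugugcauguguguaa
miR-466k: uGUGUGUGuacauguacauguga
miR-467g: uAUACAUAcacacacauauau
miR-467h: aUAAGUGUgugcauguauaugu
miR-669n: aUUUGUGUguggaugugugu

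No seed is shared between these 6 sequences. The letters of the miR-467g seed, AUACAUA, were found on the hairpin strand of 66 of 107 members (61.7%) and in 60 of the other annotated hairpins with a row in the tables (3.36%). The letters of the miR-466j seed, GUGUGCA, were found in 52 members (48.6%) and in 2.18% of the other hairpins. The miR-466i-3p seed letters were in 47.7% of members and 5.43% of the other hairpins. For miR-466k the shares were 35.5% and 7.78%, and for miR-669n 9.35% and 2.41%. The miR-467h seed letters, UAAGUGU, were found in 1 member (0.935%) and in 12 of the other hairpins (0.672%), a like share. A match of letters is a description of the hairpin and does not place a mature miRNA there. The genes that make these sequences were nearly empty in the heart libraries: 9 of the 10 same-family genes outside Sfmbt2 had 0 counts in both libraries, and Mir466q had 0 and 1.

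The members lie close together in a single intron. They span 10465287 to 10518279, a stretch of 53.0 kb that starts 94.8 kb after the first base of Sfmbt2, with a median gap of 210 bases between neighbours. Of 7 annotated Sfmbt2 transcripts, 2 span the members, and all 107 lie in an intron of them (10461473 to 10523944), which is intron 10 of one of them and intron 11 of the other. The other 5 transcripts end before the first member. In the middle of the group, 10 hairpins named Mir467a-1 to Mir467a-10 follow one another at a median distance of 2462 bases from start to start (range 2413 to 4880). By name, 20 members belong to the Mir669 family, 20 to Mir466, 14 to Mir467 and 5 to Mir297, and 48 carry gene model names without a family.

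Replicate 1 held 4327424 counts on miRNA genes of the counted strand and replicate 2 held 3839984. Levels are given as CPM, each library's counts scaled to a total of 1000000. A level of 3 counts, used here as a floor, is 0.693 CPM in the first library and 0.781 in the second. The exact Poisson 95% interval of a count of 0 reaches somewhat higher, to 0.852 and 0.961 CPM. The heart label was matched by the muscle miRNAs Mir208b (66568 ± 359 CPM; SD, n = 2), Mir208a and Mir499, while Mir133a-1 and Mir1a-1 had 10 to 13 counts. Gene counts leave out reads that mapped to several places, and how far this bears on Mir133a-1 and Mir1a-1 was not tested. Of markers of other cells, the endothelial Mir126a stood at 72473 ± 3594 CPM, above Mir208b in both libraries. In sum, 7 epithelial genes led by Mir429 gave 904.7 ± 336 CPM, 3 red cell genes led by Mir451a gave 891 ± 499 and 2 white cell genes led by Mir223 gave 434 ± 64.0. Mir126a and the epithelial genes were higher in replicate 2, and red and white cell genes in replicate 1. Their part in the values below was not tested. In a tissue library, fewer cells of a type and less RNA per cell cannot be told apart.

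The cluster as a whole was present, in reads assigned to its genes, at a modest and closely matched level in both hearts. Its members summed to 10551 counts in replicate 1 and 9392 in replicate 2, which is 2438 and 2446 CPM, or 0.244% of the counts in the tables. The ratio of replicate 2 to replicate 1 was 1.00, with an exact binomial 95% counting interval of 0.976 to 1.03. Intervals and floors here take in counting error and nothing else, because the reads carry no molecular identifiers. Under median-of-ratios scaling, which moves every log2 ratio between the libraries by the same amount, the log2 ratio of the sum was -0.11 in place of 0.00.

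Few members carried this sum. At least 10 counts in each library, the threshold used for detection, were reached by 9 of the 107 members (8.41%), against 17.1% of all genes in the tables. At least 1 count in each library was found for 16 members, against 27.5% of all genes. In both libraries 80 members had 0 counts, a state shared by 65.1% of all genes. The 9 detected members held 99.7% ± 0.0984 of the cluster's counts and the 6 most abundant held 98.7% ± 0.175.

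**Figure D1:**
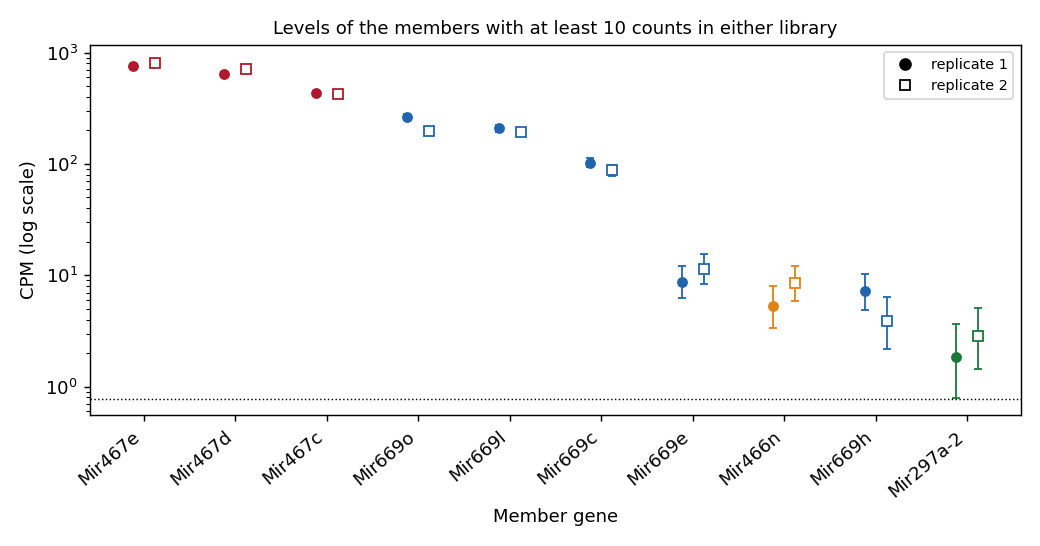
CPM (log scale) of the 10 members with at least 10 counts in either library, replicate 1 as filled circles and replicate 2 as open squares, bars giving exact Poisson 95% counting intervals and the dotted line 3 counts in replicate 2. Red marks Mir467, blue Mir669, orange Mir466 and green Mir297. Mir467e, Mir467d and Mir467c lie highest in both libraries, and the widest step between neighbours in the order, 9.67 ± 2.85 times, separates Mir669c from Mir669e.

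In reads assigned to genes, the miR-467 family led the cluster through 3 hairpins. All 9 detected members share a stretch of 20 bases with another annotated hairpin, so their counts may leave out reads that mapped to several places. How far this bears on the order and ratios of members and families given below was not measured. Mir467e (10505721 to 10505807) had 3286 counts in replicate 1 and 3081 in replicate 2, or 759 and 802 CPM, and ranked 88 and 83 among all 1973 genes. Mir467d (10507630 to 10507714) had 2767 and 2717 counts, or 639 and 708 CPM. Mir467c (10473931 to 10474027) had 1881 and 1631 counts, or 435 and 425 CPM. The order Mir467e, Mir467d, Mir467c was the same in both libraries and the ranges of neighbours did not overlap. Mir467e lay 1.16 ± 0.0379 times above Mir467d and 1.82 ± 0.10 times above Mir467c. Together these 3 held 77.1% ± 2.76 of the cluster's counts, and Mir467e with Mir467d alone held 59.6% ± 3.09.

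The other Mir467 members contrast with these. All 10 Mir467a copies had 0 counts in both libraries, and Mir467b had 0 and 1. Mir467b (10481248 to 10481320) lies within the row of Mir467a copies, whereas Mir467c lies before it and Mir467e and Mir467d after it. The floor of 3 counts concerns uniquely assigned reads of these genes and not reads with several places to map.

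The miR-669 family came next, again through 3 hairpins. Mir669o (10514300 to 10514395) had 1152 and 756 counts, or 266 and 197 CPM. Mir669l (10468971 to 10469068) had 901 and 740 counts, or 208 and 193 CPM. Mir669c (10509296 to 10509404) had 444 and 337 counts, or 103 and 87.8 CPM. Mir669o was the higher of the first pair in both libraries, but its range over the libraries overlapped that of Mir669l, so their order does not exceed the spread between libraries. Mir669c lay below both without overlap, at 2.11 ± 0.118 times under Mir669l.

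The remaining detected members were far lower. Mir669e (10467495 to 10467613) had 38 and 44 counts, or 8.78 and 11.5 CPM. Mir466n (10513741 to 10513834), the sole detected member of the miR-466 family, had 23 and 33 counts, or 5.31 and 8.59 CPM. Mir669h (10518155 to 10518279) had 31 and 15 counts, or 7.16 and 3.91 CPM. Mir669e lay 9.67 ± 2.85 times under Mir669c, and its range did not overlap that of Mir466n. The ranges of Mir466n and Mir669h overlapped, and which was higher turned between the libraries.

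Of the members below the detection threshold, Mir297a-2 came closest, with 8 and 11 counts, or 1.85 and 2.86 CPM. It was the sole Mir297 member read in both libraries. A further 6 had at least 1 count in each library. Mir669f had 2 and 7 counts, Mir466h 5 and 4, Mir466b-3 2 in each, Gm22925 3 and 1, Mir466o 1 and 2, and Gm25263 1 in each. Apart from Mir669f in replicate 2 and Mir466h in both libraries, these lie at or under 3 counts. Another 11 members had counts in 1 library alone, at most 3. The 3 Mir669a genes with a row had at most 2 counts, from Mir669a-3 in replicate 2, and 9 further Mir669a hairpins are among the 12 annotated hairpins of the intron that have no row and were not analysed here.

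By family, the Mir467 members summed to 1833 and 1935 CPM (1884 ± 71.8), with 3 of 14 detected (21.4%). The Mir669 members summed to 593 and 495 CPM (544 ± 69.4), with 5 of 20 detected (25%). Both shares are not far from the 17.1% of all genes in the tables and rest on few members. In reads assigned to genes, both families kept this order in each library without overlap. The Mir466 members summed to 9.67 ± 2.89 CPM with 1 of 20 detected (5%). The Mir297 members summed to 2.49 ± 0.903 CPM with 0 of 5 detected. Of the 48 members without a family name, 0 were detected, 43 had 0 counts in both libraries, and their sum was 8 and 3 counts. Among all genes, 65.1% had 0 counts in both libraries.

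**Figure D2:**
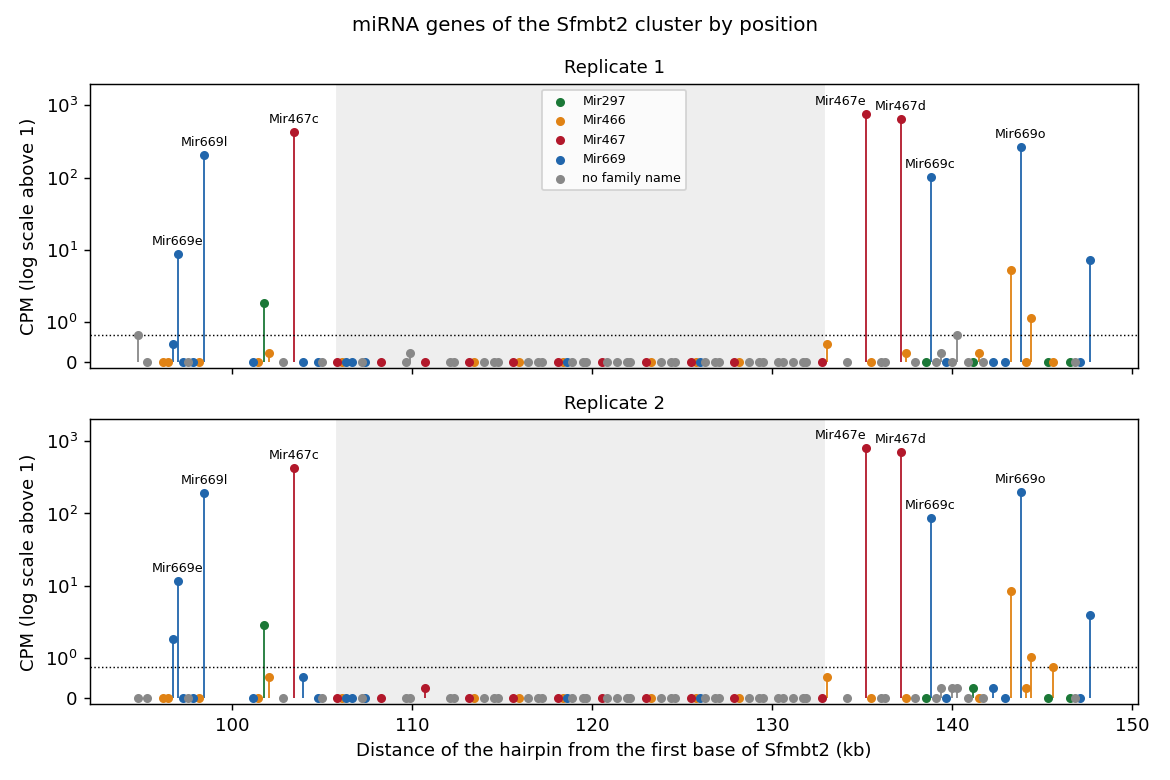
CPM (linear up to 1, log scale above) of all 107 members by the distance of the hairpin from the first base of Sfmbt2 in kb, replicate 1 above and replicate 2 below. Colours give the family by name, the grey band runs from Mir467a-1 to Mir467a-10, and the dotted line marks 3 counts; the detected members stand on both sides of the band and none stands in it.

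The detected members lay on both sides of the Mir467a copies. The division used here, at the first and last Mir467a copy (10476346 to 10503355, 27.0 kb), was chosen after the counts were seen and carries no test. Before the copies, 3 of 20 members were detected (15%), 12 had 0 counts in both libraries, and the 20 summed to 645 ± 14.3 CPM. After the copies, 6 of 32 were detected (18.8%) and 15 had 0 counts in both, with a sum of 1797 ± 19.7 CPM. Both shares are near the 17.1% of all genes. Among the 55 members from Mir467a-1 to Mir467a-10, 0 were detected, 53 had 0 counts in both libraries, and the other 2 had 1 count each, Gm25451 in replicate 1 and Mir467b in replicate 2. The share of the cluster's counts lying before the copies was 26.9% in replicate 1 and 25.9% in replicate 2, a difference of less than 1 percentage point.

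The members also differ in how much of their hairpin is shared with other annotated hairpins. A stretch of 20 bases on either strand was shared with another hairpin by 105 of 107 members, including all 9 that were detected. The longest shared stretch had a median of 71 bases over the members (range 16 to 127), against a median of 17 bases over the 1787 other genes with an annotated hairpin. In the detected members it ran from 24 bases in Mir669e to 60 in Mir467d, with 48 bases in Mir467e and in Mir467c, 57 in Mir669l, 38 in Mir669o and 36 in Mir669c. The detected members thus all lay below the median of the group.

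For 39 members the whole hairpin occurred within another annotated hairpin, and all 39 had 0 counts in both libraries, against 65.1% of all genes. Of these, 38 lie among the Mir467a copies and 1 after them. A read that falls wholly inside such a hairpin has at least 2 places to map, and the tables list reads that mapped to several places on a line apart from the genes. That line held 2496903 reads in replicate 1 and 2190149 in replicate 2, which is 235 ± 2.45 times the counts of the whole cluster, and how many of them match the cluster was not measured. A layout of this kind counts reads with a single place in the genome, so members that were silent and members whose reads also matched a copy cannot be told apart.

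**Figure D3:**
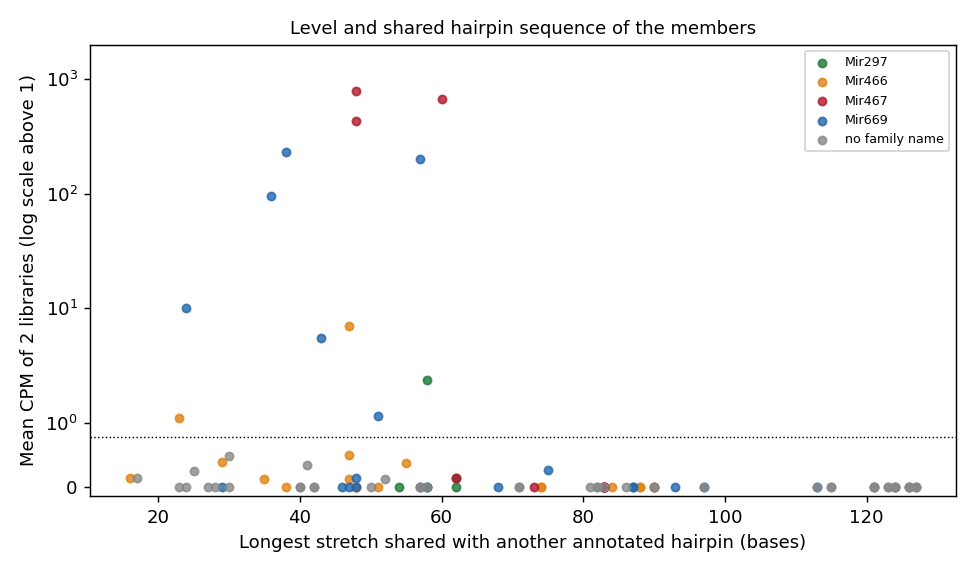
Mean CPM of the 2 libraries (linear up to 1, log scale above) against the longest stretch, in bases, that each of the 107 members shares with another annotated hairpin on either strand, coloured by family. The dotted line marks 3 counts in replicate 2, and no member that shares 70 bases or more lies above it.

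A shared stretch of 70 bases or more was found in 54 members, of which 0 were detected and 53 had 0 counts in both libraries. The 1 exception, Mir669a-3, had 2 counts in replicate 2. With shorter stretches, 9 of 53 members were detected (17.0%). The limit of 70 bases was chosen after the values were seen. Outside the cluster, 6 of 248 genes with a stretch of this length were detected (2.42%) and 322 of 1539 with shorter ones (20.9%). Of the 248, 239 had 0 counts in both libraries. Set against the 847 other genes that share 20 bases with another hairpin, of which 77 were detected (9.09%), the detected share of the members, 8.41%, was of like size. Stretches were compared on either strand, and hairpins facing each other at a single place were not set aside among the other genes. The Sfmbt2 span holds 0 hairpins on its other strand, so the sets may not be alike in this. No test was made of these shares, because copies within the cluster are not independent.

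The members were poor in GC and rich in alternating bases. Their GC content ran from 29.0% to 43.4% with a median of 38.3%, and the other genes had a median of 52.0% (9.26% to 92%). The steps TG, GT, CA and AC made up a median of 48.6% of neighbouring base pairs in the members (range 32.5% to 66.7%) and 26.6% in the other genes. Detected members had a median of 48.8% on this measure and members that were not detected 48.6%.

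Between the libraries the families moved in unequal measure. The ratio of replicate 2 to replicate 1 was 1.06 for the Mir467 sum (exact binomial 95% counting interval 1.02 to 1.09) and 0.835 for the Mir669 sum (0.786 to 0.886). Within each library, which needs no scaling, Mir467 counts exceeded Mir669 counts 3.09 times in replicate 1 and 3.91 times in replicate 2. The ratio of these values was 1.26 (exact 95% counting interval 1.18 to 1.35), and 1.16 (1.06 to 1.26) without Mir669o. The direction of the Mir467 sum alone depends on scaling, with a ratio of 0.975 under median-of-ratios scaling, while the Mir669 ratio stayed under 1, at 0.798 with trimmed-mean and 0.771 with median-of-ratios scaling.

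**Figure D4:**
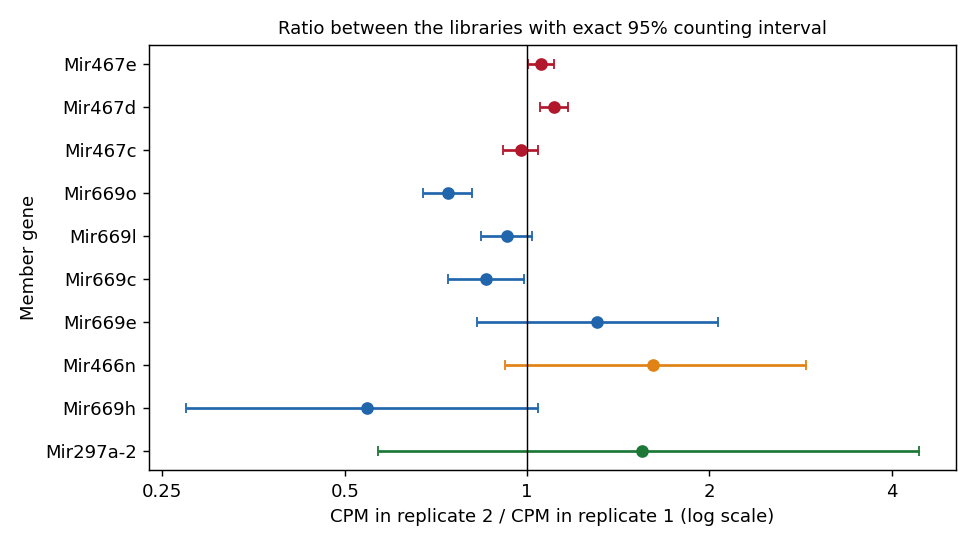
Ratio of CPM in replicate 2 to CPM in replicate 1 (log scale) for the 10 members with at least 10 counts in either library, with exact binomial 95% counting intervals, red for Mir467, blue for Mir669, orange for Mir466 and green for Mir297. Scaled to library totals as drawn, Mir669o at 0.740 and Mir669c at 0.855 lie under 1 and Mir467d at 1.11 above it with intervals that leave out 1, as does Mir467e narrowly. Another scaling shifts all ratios and intervals by the same factor.

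For Mir669o the ratio was 0.740 (0.674 to 0.811), against 0.926 (0.839 to 1.02) for Mir669l and 0.855 (0.740 to 0.988) for Mir669c. Mir467d was higher in replicate 2 at 1.11 (1.05 to 1.17) and Mir467e at 1.06 (1.01 to 1.11), while the interval of Mir467c (0.977, 0.914 to 1.04) held 1. The intervals of Mir669e, Mir466n and Mir669h were wide and held 1. Scaled to library totals, the ratios of Mir669o, Mir669c, Mir467d and Mir467e thus departed from 1 by more than counting error. Median-of-ratios scaling lowers every log2 ratio by the same amount, which took that of the cluster sum from 0.00 to -0.11. Which intervals leave out 1 therefore depends on scaling. All 4 ratios lay within the spread of other genes. Ratios from 0.702 to 2.25 held the central 95% of the 270 other genes that averaged 10 CPM or more, with a median of 1.06. That set was not matched to the 4 members on level. It reaches down to genes with fewer counts, whose ratios vary more by counting alone.

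In reads assigned to genes, other imprinted loci lay above and below the cluster. The cluster's sum leaves out reads that mapped to several places and the 12 hairpins without a row, so these comparisons do not rank the output of the loci. Mir335, hosted in Mest, stood 49.0 ± 3.24 times above the summed cluster, and the 59 miRNA genes between Dlk1 and Dio3 on chromosome 12 summed to 32122 ± 4023 CPM, with 43 of 59 detected and Mir487b the highest. Mir483 alone, at 5386 and 4846 CPM, exceeded the summed cluster in both libraries. Mir298 and Mir296 of the Gnas locus, at 3339 ± 374 and 2916 ± 226 CPM, also lay above its sum in both. Mir675 of H19 lay below it, at 116 CPM in replicate 1 and 146 in replicate 2. The 6 measured genes of the miR-290 cluster, which is known from pluripotent cells and the placenta, summed to 50.2 ± 3.37 CPM, led by Mir293 with 91 and 84 counts. On the opposite strand the members had 0 counts in both libraries.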

How the data were processed

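Both libraries come as 1 deposited table each. The authors deposited whole-number counts per gene in 3 columns (unstranded, plus strand-specific for either strand), not normalized, on mm10 with GENCODE M4 per the file headers listed with them. Which aligner and counter were used is not given in the sources used here. The strand-specific column that held 95.4% ± 0.103 of gene reads was used, and totals exclude the 4 lines without a gene. Of all reads, 30.4% ± 0.359 mapped to several places. Symbols and positions came from GENCODE M21 on the same assembly, which named 1894 of 1973 identifiers matched without their version. Hairpin comparisons used the 2202 miRNA transcripts of M21, both strands. With 1 group there is no test. Python 3.11.15, scipy 1.17.1, edgeR 4.0.16 and DESeq2 1.42.0 (scaling only) were used, and interval code was tested on simulated data. Named were members with at least 10 counts in either library, then those of the 25 most abundant with counts in both, same-family genes elsewhere, and the highest gene of each reference list. Members named beyond this rule, and the divisions by position and stretch, were chosen after their values were seen. Members and lists were chosen with earlier results of these data known.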

Additional observations from a re-analysis of the deposited data

How the results depend on the processing

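The summed level of 2442 ± 5.43 CPM was 2328.5 CPM with the unstranded column, whose larger total includes opposite-strand reads of other genes. Selection by family name anywhere in the genome left the summed level within its SD, at 2440.8 CPM. With 1 replicate left out it ran from 2438 to 2446 CPM. Trimmed-mean and median-of-ratios scaling also left it within its SD, but they move the 2 libraries in opposite directions, so the mean can hardly change. Restriction to introns of the longest transcript keeps all 107 members and so could not change the sum. The log2 ratio of the sum between libraries, 0.00 as reported, was -0.061 with trimmed-mean and -0.11 with median-of-ratios scaling, so its sign is not determined; pseudocounts of 0.1 and 10 CPM did not move it beyond counting error. The number of detected members was 10 with a minimum of 5 counts, 8 with a minimum of 20, and 9 to 10 with 1 replicate left out. Of the 10 member levels given in full, 8 stayed within 1 SD with the unstranded column, and Mir467e (745 CPM) and Mir467c (409.7 CPM) fell beyond it. As the members had 0 counts on the opposite strand, the larger total lowers all of them by the same factor in each library. Which members fall beyond 1 SD thus depends on how small their SD is for their level. Depth limits all members below about 3 counts. How far leaving out reads that mapped to several places lowers the counts was not measured, for detected members or for members at 0.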
